A study of Mus musculus with 6 samples.

Results

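Cadherins, catenins and plaque proteins of the desmosome hold lens cells together. The group described here comprises 10 genes of 23420 in the count table, chosen by symbol: the cadherin genes Cdh1 and Cdh2, the catenin genes Ctnna1, Ctnna2, Ctnnb1, Ctnnd1, Ctnnd2 and Arvcf, and Jup and Dsp of the desmosomal plaque. RNA of mouse lens tissue from E14.5 was sequenced, taken from the transition zone, where cells of the epithelium stop dividing and start to elongate into fibre cells. The 3 mutant libraries derive from embryos that carried Le-Cre, were null for Etv4 (Etv4-/-) and had floxed alleles (fl/fl) at both Etv5 and Etv1. The 3 control libraries derive from embryos with Le-Cre alone; their titles call them wild type, but they carry the transgene too. All embryos had a mixed strain background. Le-Cre is driven by regulatory sequence of Pax6 and is active in lens-forming surface ectoderm. Recombination of Etv1 and Etv5 is thus directed to that lineage, though its extent was not measured here. The Etv4 allele is labelled as null in the whole embryo.

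Etv1, Etv4 and Etv5 make up the Pea3 subfamily of ETS transcription factors, known as effectors of fibroblast growth factor receptors. The question for the junction genes is whether their transcripts differ in lenses of this mutant genotype. In an adherens junction, a classical cadherin spans the membrane and binds its partner on the next cell. Its cytoplasmic tail holds beta-catenin or plakoglobin at one site and a member of the p120-catenin subfamily at another, and alpha-catenin links the complex to actin. In the lens, E-cadherin (Cdh1) is a protein of the epithelium, whereas N-cadherin (Cdh2) is present in epithelium and fibres.

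Of the 10 genes, 9 were abundant enough to be tested, and 2 changed: Ctnna2, which encodes alphaN-catenin, and Arvcf, which encodes a catenin of the p120 subfamily, both fell in mutant libraries. Neither cadherin gene passed the test, nor did the genes of alphaE-catenin, beta-catenin, p120-catenin, delta-catenin and plakoglobin. Tests were edgeR's quasi-likelihood test on counts of all genes, with Benjamini-Hochberg adjustment and a threshold of 0.05. Over all 12257 tested genes, 2.22% were called in either direction, 1.14% higher and 1.08% lower in mutant libraries. The count of 2 lower and 0 higher among 9 tested genes stands beside these shares. At an unadjusted p under 0.05 there were also 2, the same pair, beside 1985 of all 12257 tested genes. DESeq2 and limma voom called this pair as well, and called 821 and 808 genes over the whole table. With the replicate number as a block in edgeR, 0 of the 10 genes were called (122 over all genes). Leaving out single libraries gave between 0 and 2 of the 10 (between 91 and 479 over all genes). The median log2 fold change of the 9 genes was -0.19, against 0.0018 over all tested genes.

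The promoter sequences of these 2 genes are shown because ETS factors bind DNA around the letters GGAA. Each is the stretch of 250 bases before a RefSeq transcription start on build GRCm38.p6, 5′ to 3′ on the gene's strand, with GGAA on either strand (TTCC when read from the other one) in capitals. The Arvcf stretch is chr16:18347932-18348181 on the plus strand, and the Ctnna2 stretch is chr6:77979668-77979917 on the minus strand.
Arvcf: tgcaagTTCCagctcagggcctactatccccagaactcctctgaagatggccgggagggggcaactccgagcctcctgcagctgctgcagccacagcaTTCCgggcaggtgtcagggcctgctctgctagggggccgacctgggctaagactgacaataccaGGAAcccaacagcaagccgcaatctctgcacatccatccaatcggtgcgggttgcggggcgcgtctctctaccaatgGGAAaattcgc
Ctnna2: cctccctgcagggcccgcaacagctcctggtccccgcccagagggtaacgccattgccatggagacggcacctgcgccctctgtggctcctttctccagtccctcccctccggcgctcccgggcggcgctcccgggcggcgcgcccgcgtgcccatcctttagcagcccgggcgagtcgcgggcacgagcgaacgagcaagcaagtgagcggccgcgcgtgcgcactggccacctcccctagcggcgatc
The Arvcf stretch holds 4 matches to GGAA, of which 1 is part of the longer CCGGAA, and the Ctnna2 stretch holds 0 of either. Arvcf has 3 starts in the table, and the stretches before the other two hold 3 and 1 matches to GGAA. GGAA on either strand occurs in 93.4% of all 32851 promoter stretches of this length and CCGGAA in 12.0%. A match is a run of letters and not a measured binding site, and its absence concerns this window alone. For 7 of the 10 genes the table had an entry.

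Sequencing depth was similar across libraries, with totals between 13364742 and 17301168 counts, so that a count of 0 allows a level of up to 0.247 CPM, the count relative to the library's total after TMM scaling (3 counts), in the shallowest library. Such limits cover counting error only, whereas the 95% intervals below come from edgeR's fit and include the spread among libraries. The labels leave unsaid whether the libraries of a group are separate embryos, so p-values cover only the spread among these libraries, which may be technical in part. Etv1 fell to 26.5 CPM ± 4.25 in mutant libraries, against 57.4 CPM ± 12.7 in control libraries (SD, n = 3 each; edgeR adjusted p = 0.0319), and the call was lost without mutant library 1 or 3 or control library 2 or 3. Etv5 averaged 103.5 CPM ± 18.0 in mutant and 196.8 CPM ± 42.3 in control libraries (SD, n = 3 each; edgeR adjusted p = 0.0503), and Etv4 averaged 4.28 CPM ± 0.61 in mutant and 2.75 CPM ± 0.562 in control libraries (SD, n = 3 each; edgeR adjusted p = 0.427). The deleted exons are not given, and a gene's count also covers its remaining exons, so these values do not check the labels. Xist had 711 counts in mutant library 1 and at most 3 in the other 5 libraries. The Y-linked Ddx3y had 2 counts in mutant library 1 and at least 521 in the others. Mutant library 1 thus differs in sex and comes from another embryo than mutant libraries 2 and 3.

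Markers of the lens were abundant in every library. The summed level of 10 fibre markers was 5009, 9510 and 5050 CPM in mutant libraries 1, 2 and 3, and 16747, 11136 and 10352 CPM in control libraries 1, 2 and 3, without overlap; 1 of the 8 tested, Bfsp2, passed, and all 8 had negative log2 fold changes. The 5 epithelial markers summed to between 1889 and 2465 CPM in mutant and between 1843 and 1898 CPM in control libraries, most of it Sparc. Among the controls alone, Foxe3 ranged from 51.2 to 282.8 CPM. Crystallin genes took 21.7%, 32.2% and 19.5% of counts in mutant libraries 1, 2 and 3, and 37.6%, 30.2% and 21.8% in control libraries 1, 2 and 3. These shares differ among libraries of the same group, and control library 1 stands apart with the highest. In bulk tissue, fewer cells of a type and less RNA per cell cannot be told apart. Markers of other tissues were low. In any library, the 6 markers of corneal and skin ectoderm summed to at most 7.63 CPM (Krt12 at 0 throughout), the 6 retinal markers to at most 0.872 CPM (Six6 and Crx at 0), the pigment cell markers to at most 9.12 CPM (Tyr at 0) and the 6 mesenchymal markers to at most 16.2 CPM. The 6 macrophage markers summed to between 3.79 and 21.8 CPM in mutant and 1.05 and 7.25 CPM in control libraries. Endothelial markers, mostly Tek, reached 55.4 CPM and erythroid markers, mostly Hbb-y, 269.8 CPM, both in mutant library 3.

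**Figure D1:**
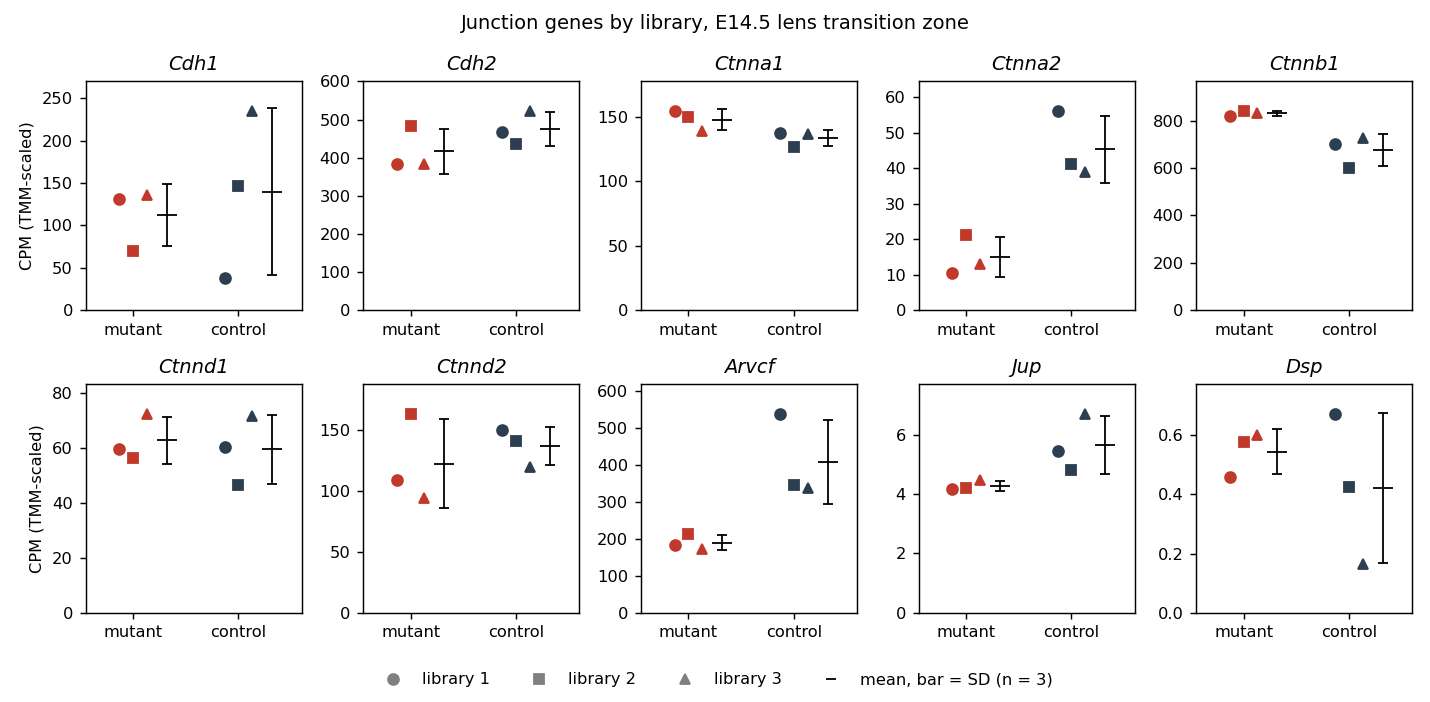
TMM-scaled CPM (y axis, from 0, a separate scale for each gene) of the 10 genes in the 3 mutant and 3 control libraries; symbols mark the library number, and the black dash and bar give the mean and SD (n = 3). The groups are apart in Arvcf and Ctnna2, and closer but without overlap in Ctnna1, Ctnnb1 and Jup, whereas Cdh1 ranges from 38.3 to 235.1 CPM among the controls alone.

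Cdh1 encodes E-cadherin, the classical cadherin of epithelial sheets. It stood at 131.4, 70.3 and 136.0 CPM in mutant libraries 1, 2 and 3, and at 38.3, 146.5 and 235.1 CPM in control libraries 1, 2 and 3. The controls enclosed the mutants on both sides, with the lowest and the highest library of all 6 among them. The log2 fold change of -0.31 ± 0.57 (SE; 95% interval -1.64 to 1.02) did not pass (edgeR adjusted p = 0.836), and its sign turned without control library 3, to 0.28. An interval this wide holds changes of more than 1 on the log2 scale either way.

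Within each group, Cdh1 differed among libraries along with the crystallin share. The libraries with the most crystallin, control 1 and mutant 2, had the least Cdh1. Foxe3, a transcription factor gene of the lens epithelium, stood at 152.1, 39.7 and 155.7 CPM in mutant libraries 1, 2 and 3, and at 51.2, 214.0 and 282.8 CPM in control libraries 1, 2 and 3. It was likewise lowest in mutant library 2 and control library 1 and highest in control library 3. Of the 5 epithelial markers, 4 (Foxe3, Pax6, Pdgfra and Gja1) had their lowest mutant value in library 2 and their lowest control value in library 1. Sparc, the most abundant of the 5, went the other way, with its highest mutant value, 2149 CPM, in library 2 and its highest control value, 1653 CPM, in library 1. In a fit with the crystallin share as covariate, the log2 fold change of Cdh1 was -0.74 ± 0.28 (SE), again without passing (edgeR adjusted p = 0.203). Such a fit leaves 3 residual degrees of freedom among the 6 libraries. The part of tissue make-up in the Cdh1 values was not tested.

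Cdh2 encodes N-cadherin. It stood at 383.1, 483.3 and 382.7 CPM in mutant libraries 1, 2 and 3, and at 467.0, 435.5 and 522.6 CPM in control libraries 1, 2 and 3. Mutant library 2 lay within the control range and the other 2 mutant libraries below it. The log2 fold change was -0.19 ± 0.15 (SE; 95% interval -0.53 to 0.15; edgeR adjusted p = 0.568). Among the controls, Cdh2 varied far less than Cdh1, with an SD of 44.1 CPM on a mean of 475.0 CPM, against an SD of 98.6 CPM on a mean of 139.9 CPM.

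The ratio of Cdh2 to Cdh1 counts within a library needs no scaling between libraries. It was 2.92, 6.87 and 2.81 in mutant libraries 1, 2 and 3, and 12.2, 2.97 and 2.22 in control libraries 1, 2 and 3. The high values belong to mutant library 2 and control library 1, 1 in each group. The mean log2 ratio differed by -0.17 between mutant and control libraries (exact two-sided permutation p = 0.8, adjusted over 5 ratios 0.8; 3 against 3 cannot go below 0.1).

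**Figure D2:**
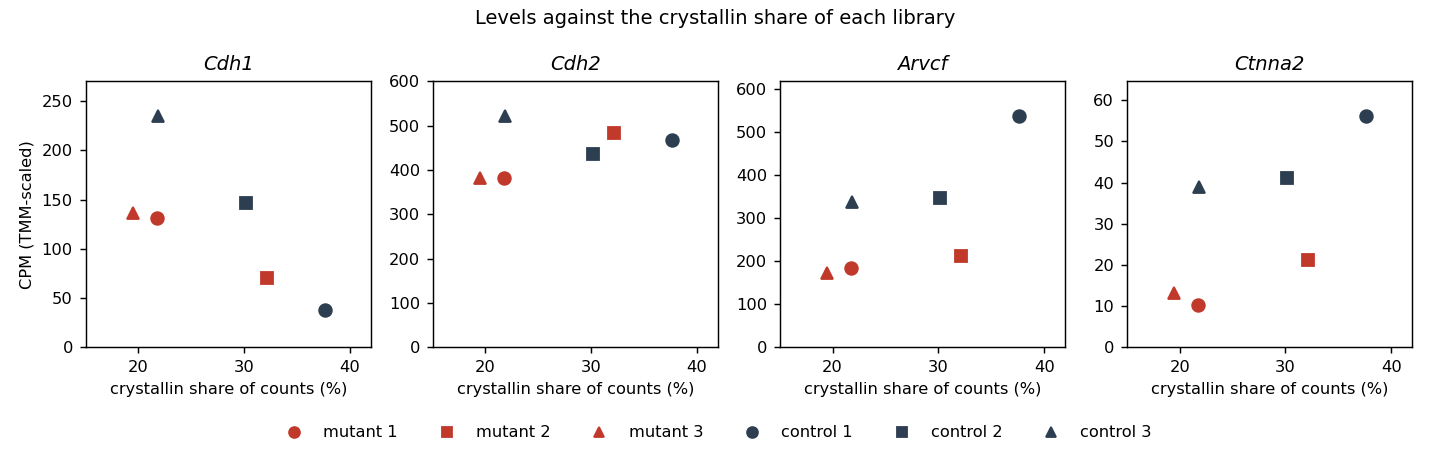
TMM-scaled CPM (y axes, from 0) of Cdh1, Cdh2, Arvcf and Ctnna2 against the share of counts from 16 crystallin genes (x axis, percent), 1 point for each library; red marks mutant, dark blue control. Among the controls Cdh1 is 235.1 CPM at a share of 21.8% and 38.3 CPM at 37.6%. All 3 mutant libraries lie below all 3 controls in Arvcf and Ctnna2.

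Alpha-catenins tie the cadherin complex to actin filaments, alphaE-catenin (Ctnna1) in epithelia generally and alphaN-catenin (Ctnna2) mainly in neural tissue. Ctnna2 stood at 10.4, 21.2 and 13.1 CPM in mutant libraries 1, 2 and 3, and at 56.2, 41.1 and 38.9 CPM in control libraries 1, 2 and 3. The highest mutant library was well below the lowest control. It averaged 14.9 CPM ± 5.61 in mutant and 45.4 CPM ± 9.43 in control libraries (SD, n = 3 each), and its log2 fold change was -1.61 ± 0.28 (SE; 95% interval -2.26 to -0.96; edgeR adjusted p = 0.0265). The retinal markers summed to under 1 CPM in every library, and markers of other neural tissue were not examined. Lrrtm1, whose gene lies inside an intron of Ctnna2 on the other strand, had at most 1.12 CPM in any library and shares no exon bases with it in the GENCODE M21 annotation. The call was kept without mutant library 2, at -1.95, and was lost without each of the other 5, where the log2 fold change lay between -1.71 and -1.41 (edgeR adjusted p between 0.0556 and 0.146).

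Ctnna1 went the other way by a small margin. It stood at 154.4, 149.6 and 138.9 CPM in mutant libraries 1, 2 and 3, and at 137.7, 126.3 and 136.4 CPM in control libraries 1, 2 and 3. The groups did not overlap, as was the case for 22.7% of all tested genes and for 5 of these 9, but the gap was narrow. Its log2 fold change, 0.15 ± 0.12 (SE; 95% interval -0.12 to 0.41), did not pass (edgeR adjusted p = 0.578). The ratio of Ctnna2 to Ctnna1 counts was 0.0674, 0.142 and 0.0946 in mutant libraries 1, 2 and 3, and 0.408, 0.326 and 0.285 in control libraries 1, 2 and 3. Every mutant library had the lower ratio. The mean log2 ratio differed by -1.80 (exact two-sided permutation p = 0.1, the smallest this design allows; adjusted over 5 ratios 0.167).

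The p120 subfamily binds the cadherin tail next to the membrane and keeps cadherins from being taken up and degraded. Arvcf stood at 184.5, 213.2 and 172.1 CPM in mutant libraries 1, 2 and 3, and at 538.3, 346.2 and 338.3 CPM in control libraries 1, 2 and 3. All mutant libraries were below all controls, and control library 1 was far above the other two. Arvcf averaged 189.9 CPM ± 21.1 in mutant and 407.6 CPM ± 113.3 in control libraries (SD, n = 3 each), and its log2 fold change was -1.10 ± 0.20 (SE; 95% interval -1.56 to -0.64; edgeR adjusted p = 0.0302). Without control library 1 it was -0.85 and still passed (edgeR adjusted p = 0.0291). The call was lost without mutant library 1 or 3 or control library 2, at log2 fold changes of -1.08, -1.03 and -1.21 (edgeR adjusted p = 0.148, 0.157 and 0.0732). In the fit with a crystallin covariate the log2 fold change was -0.89 for Arvcf and -1.39 for Ctnna2, and both passed (edgeR adjusted p = 0.00268 and 0.00154).

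Among the 5 tested genes on either side of Arvcf in gene order, 0 of 10 were called, and the same held for the 10 neighbours of Ctnna2. Over all tested genes 2.22% were called, so a count of 0 among 10 is little informative. Arvcf and Ctnna2 shared an order among the controls: both were highest in control library 1, then control 2 and control 3. Among mutants both were highest in library 2, whereas the order of mutant libraries 1 and 3 differed between them. These libraries, control 1 and mutant 2, also had the highest crystallin share of their group. The summed fibre markers had the same highest library in each group, and were lower in mutant libraries as Arvcf and Ctnna2 were. Crystallin shares overlapped between the groups, whereas the fibre sums did not. The fit with the crystallin covariate thus does not stand in for fibre content, whose part in these results was not tested.

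Ctnnd1, the gene of p120-catenin itself, stood at 59.6, 56.4 and 72.6 CPM in mutant libraries 1, 2 and 3, and at 60.5, 46.7 and 71.8 CPM in control libraries 1, 2 and 3. The groups overlap, and 2 of the 3 control libraries lie within the mutant range. Its log2 fold change was 0.08 ± 0.18 (SE; 95% interval -0.35 to 0.50; edgeR adjusted p = 0.881), and the sign turned without mutant library 3, without control library 2 and in the fit with a crystallin covariate. Ctnnd2, which encodes delta-catenin and is known mainly from neurons, stood at 109.2, 163.7 and 94.1 CPM in mutant libraries 1, 2 and 3, and at 149.9, 141.0 and 119.7 CPM in control libraries 1, 2 and 3. Mutant library 2 was the highest of all 6, and the other 2 mutant libraries were the lowest. Its log2 fold change was -0.16 ± 0.21 (SE; 95% interval -0.64 to 0.32; edgeR adjusted p = 0.756), and was 0.011 in the fit with a crystallin covariate.

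Ratios within the subfamily compare its members in the same library. The ratio of Arvcf to Ctnnd1 counts was 3.09, 3.78 and 2.37 in mutant libraries 1, 2 and 3, and 8.89, 7.42 and 4.71 in control libraries 1, 2 and 3. The groups did not overlap, and the mean log2 ratio differed by -1.16 (exact two-sided permutation p = 0.1, the smallest this design allows; adjusted over 5 ratios 0.167). The ratio of Ctnnd2 to Ctnnd1 counts was 1.83, 2.90 and 1.30 in mutant libraries 1, 2 and 3, and 2.48, 3.02 and 1.67 in control libraries 1, 2 and 3. These overlapped, with a difference of -0.29 in the mean log2 ratio (exact two-sided permutation p = 0.6, adjusted over 5 ratios 0.75). The difference between these 2 differences was not tested.

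Beta-catenin (Ctnnb1) binds the cadherin tail and also carries the Wnt signal to the nucleus, while its paralog plakoglobin (Jup) serves both adherens junctions and desmosomes. Ctnnb1 stood at 821.3, 841.4 and 832.6 CPM in mutant libraries 1, 2 and 3, and at 701.2, 600.9 and 725.9 CPM in control libraries 1, 2 and 3. The mutant libraries were close to one another and all above the controls. Its log2 fold change, 0.30 ± 0.14 (SE; 95% interval -0.01 to 0.61), did not pass (edgeR adjusted p = 0.321), nor in DESeq2 (adjusted p = 0.252) or limma voom (adjusted p = 0.106). Jup, at 4.16, 4.21 and 4.47 CPM in mutant libraries 1, 2 and 3, and at 5.46, 4.80 and 6.71 CPM in control libraries 1, 2 and 3, was low everywhere. Its mutant values were all below its control values, by a log2 fold change of -0.40 ± 0.30 that did not pass (SE; 95% interval -1.08 to 0.28; edgeR adjusted p = 0.549). The ratio of Jup to Ctnnb1 counts lay between 0.0050 and 0.00537 in mutant and between 0.00778 and 0.00924 in control libraries. This ratio was the tightest of the 5 within groups, and its mean log2 value differed by -0.69 (exact two-sided permutation p = 0.1, the smallest this design allows; adjusted over 5 ratios 0.167).

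Dsp encodes desmoplakin, which anchors intermediate filaments to the desmosome. It had 9, 7 and 11 counts in mutant libraries 1, 2 and 3, and 9, 7 and 3 counts in control libraries 1, 2 and 3. With so few counts in all 6 libraries it did not pass the filter on low counts and was not tested. Without that filter its log2 fold change was 0.38, with a 95% interval of -1.77 to 2.53 (edgeR adjusted p = 0.899). A difference of moderate size was thus not detectable at this depth.

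**Figure D3:**
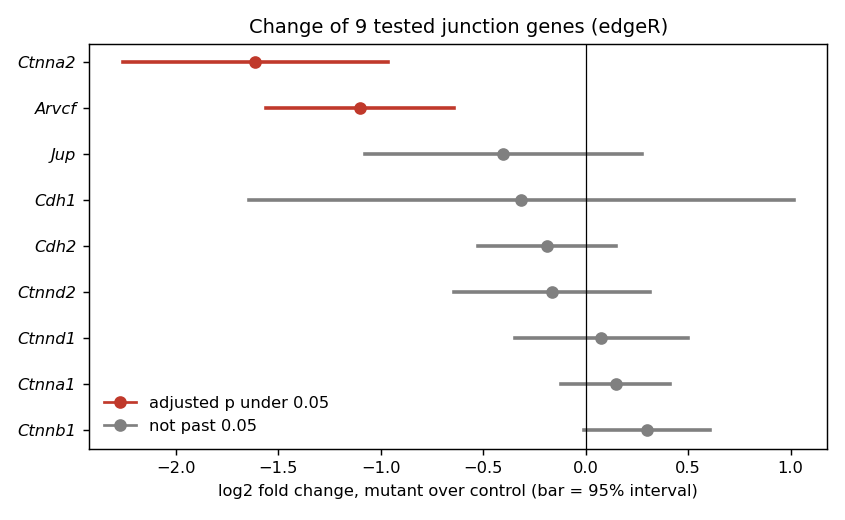
Log2 fold change, mutant over control (x axis), of the 9 tested genes, with bars for the 95% interval from edgeR's quasi-likelihood fit; red marks an adjusted p under 0.05. Ctnna2 and Arvcf have intervals wholly below 0, from -2.26 to -0.96 and from -1.56 to -0.64, and Cdh1 has the widest, from -1.64 to 1.02.

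**Figure D4:**
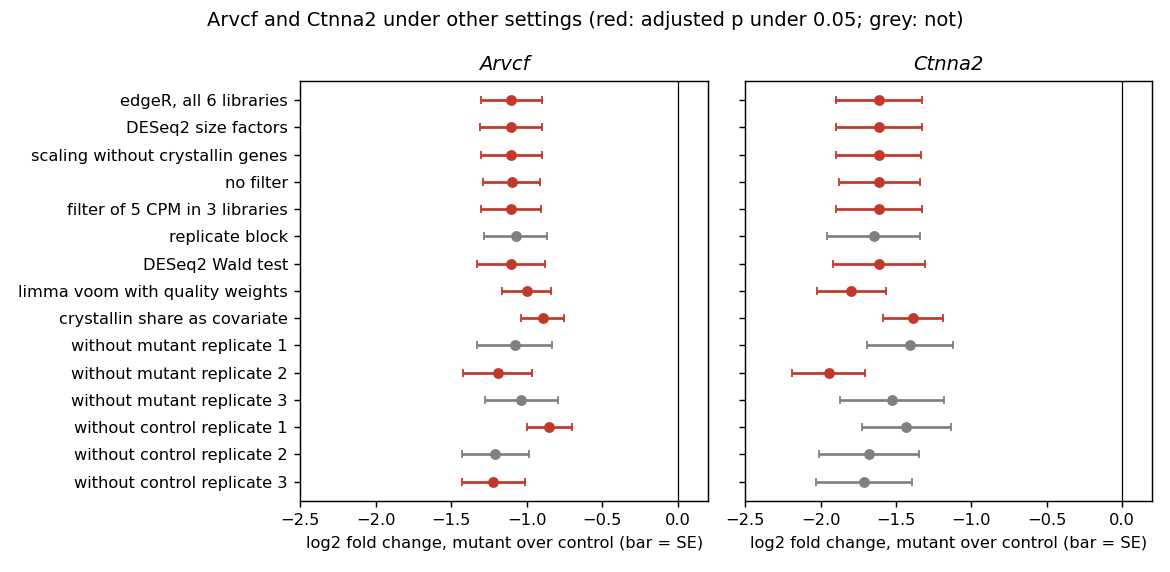
Log2 fold change of Arvcf and Ctnna2, mutant over control (x axes; bar = SE), with all 6 libraries (top) and under each alternative named on the left; red marks an adjusted p under 0.05. The direction is the same under all 14 alternatives, while the call is lost under the grey ones, which are the replicate block and, for Arvcf 3 and for Ctnna2 5, fits without a single library.

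Levels of different genes were set side by side per kilobase of exon, using exon lengths of GENCODE M21 and the same scaled CPM (RPKM below). Ctnnb1 was highest in both groups, at 160.2 RPKM ± 1.94 in mutant and 130.2 RPKM ± 12.8 in control libraries (SD, n = 3 each). In mutant libraries it was followed by Cdh2 at 51.6 RPKM, Arvcf at 28.3, Cdh1 at 24.6, Ctnna1 at 23.0, Ctnnd2 at 11.9, Ctnnd1 at 8.59, Ctnna2 at 2.15, Jup at 0.665 and Dsp at 0.0564 RPKM. In control libraries the order was Arvcf at 60.7 RPKM, Cdh2 at 58.9, Cdh1 at 30.6, Ctnna1 at 20.8, Ctnnd2 at 13.3, Ctnnd1 at 8.15, Ctnna2 at 6.53, Jup at 0.879 and Dsp at 0.0436 RPKM. The 2 orders are alike but for Arvcf, which came after Cdh2 in mutant and before it in control libraries. Neighbours in the order whose libraries overlapped were Arvcf with Cdh1, Cdh1 with Ctnna1 and Ctnnd2 with Ctnnd1 in the mutants, and Arvcf with Cdh2, Cdh1 with Ctnna1 and Ctnnd1 with Ctnna2 in the controls. Among the alpha-catenins, Ctnna1 exceeded Ctnna2 in every library, and Ctnnb1 exceeded Jup by more than 100 times in each. The exon lengths come from another build than the counts, so values per kilobase are approximate.

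Some of these genes share exon bases with a neighbour. Ctnnb1 shares 759 with Ulk4 and Ctnna1 shares 95 with Lrrtm2, both on the opposite strand, and the libraries do not mark strand, so reads there cannot be assigned. Ctnnd1 shares 4482 exon bases with Gm28635 on its own strand, which is not in the count table, so its level may include reads of that transcript. Ulk4 had at most 9.65 CPM and Lrrtm2 at most 5.46 CPM in any library, so neither is of the size of its neighbour's level.

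Other genes of the same junctions were taken from lists by known role, which were chosen with earlier results of these data known. In the desmosome, Perp fell. It encodes a tetraspan membrane protein of desmosomes and stood at 13.7, 12.0 and 10.6 CPM in mutant libraries 1, 2 and 3, and at 29.5, 25.9 and 26.8 CPM in control libraries 1, 2 and 3. The groups are far apart, and edgeR gave a log2 fold change of -1.18 ± 0.19 (SE; adjusted p = 0.0158). Of 15 desmosomal genes beside Jup and Dsp, 4 were tested, of which 1 fell, 0 rose and 3 did not pass, with a median of -0.91 on the log2 scale; the other 11 had too few counts. Desmoglein genes were at or near 0, Dsg2 at most at 1.88 CPM, so most counts of desmosomal cadherins came from Dsc2. Dsc2, named after its values were seen, averaged 7.92 CPM ± 2.37 in mutant and 12.4 CPM ± 0.288 in control libraries (SD, n = 3 each; edgeR adjusted p = 0.294). Of the 10 neighbours of Perp in gene order, 2 were called, Slc35d3 and Pex7, beside 2.22% of all tested genes. The Perp call was lost without mutant library 1 or 3 or control library 2 or 3, at log2 fold changes between -1.28 and -1.09.

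Among 22 partners of the adherens junction, all tested, Ssx2ip fell, 0 rose and 21 did not pass, with a median log2 fold change of -0.02. Ssx2ip encodes a protein that binds the nectin partner afadin and also serves at the centrosome. It stood at 438.9, 476.2 and 436.8 CPM in mutant libraries 1, 2 and 3, and at 1425, 922.0 and 1103 CPM in control libraries 1, 2 and 3. Every mutant library was far below every control, and edgeR gave a log2 fold change of -1.35 ± 0.18 (SE; adjusted p = 0.00831). The call was lost without mutant library 1 or 3, at -1.33 in both. Of the 10 neighbours of Ssx2ip, 1 was called, Ddah1, beside 2.22% of all tested genes. Tjp1, which encodes the scaffold protein ZO-1 and is likewise named after its values were seen, was at -0.75 on the log2 scale (edgeR adjusted p = 0.106) and passed in DESeq2 and in limma voom. Vinculin (Vcl), afadin (listed as Mllt4) and the nectin genes did not pass.

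Of 18 other cadherins, 6 were tested and 0 passed in edgeR. At an unadjusted p under 0.05 there were 3, beside 1985 of all 12257 tested genes. Both DESeq2 and limma voom called Cdh6. Cdh6 and Cdh4 are named after their values were seen. Cdh6, a type II cadherin gene, averaged 13.7 CPM ± 7.07 in mutant and 4.18 CPM ± 1.97 in control libraries (SD, n = 3 each; edgeR adjusted p = 0.112). Cdh4, the gene of R-cadherin, averaged 148.2 CPM ± 25.1 in mutant and 216.0 CPM ± 40.8 in control libraries (SD, n = 3 each; edgeR adjusted p = 0.19). The list's median log2 fold change was -0.87, and 12 of its genes had too few counts. Among the tested genes, Cdh11, Cdh15, Cdh18 and Cdh22 averaged at most 2.05 CPM in either group, so low counts weigh on this median. They too are named after their values were seen. Cdh4 had more counts than any other gene of this list.

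The remaining lists held no called gene in edgeR. Their counts at an unadjusted p under 0.05 stand beside 1985 of all 12257 tested genes. Of 5 other genes of the catenin family, 4 were tested, 1 had an unadjusted p under 0.05, and DESeq2 and limma voom called 0; the median log2 fold change was -0.10. Of 16 tight junction genes, 9 were tested, 0 had an unadjusted p under 0.05, and DESeq2 and limma voom called 0, at a median of 0.30. Of 7 genes of transcriptional repressors of Cdh1, 5 were tested, 2 had an unadjusted p under 0.05 and limma voom called 0, but DESeq2 called Twist1 higher. Twist1, named after its values were seen, stood at 5.43, 1.32 and 3.49 CPM in mutant libraries 1, 2 and 3, and at 0, 0.85 and 0.222 CPM in control libraries 1, 2 and 3 (edgeR adjusted p = 0.16). Twist1 is also known from mesenchyme, whose 6 markers summed to 3.30, 2.64 and 2.62 CPM in mutant libraries 1, 2 and 3, and to 7.70, 16.2 and 1.83 CPM in control libraries 1, 2 and 3, and their part in the Twist1 values was not tested.

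**Figure D5:**
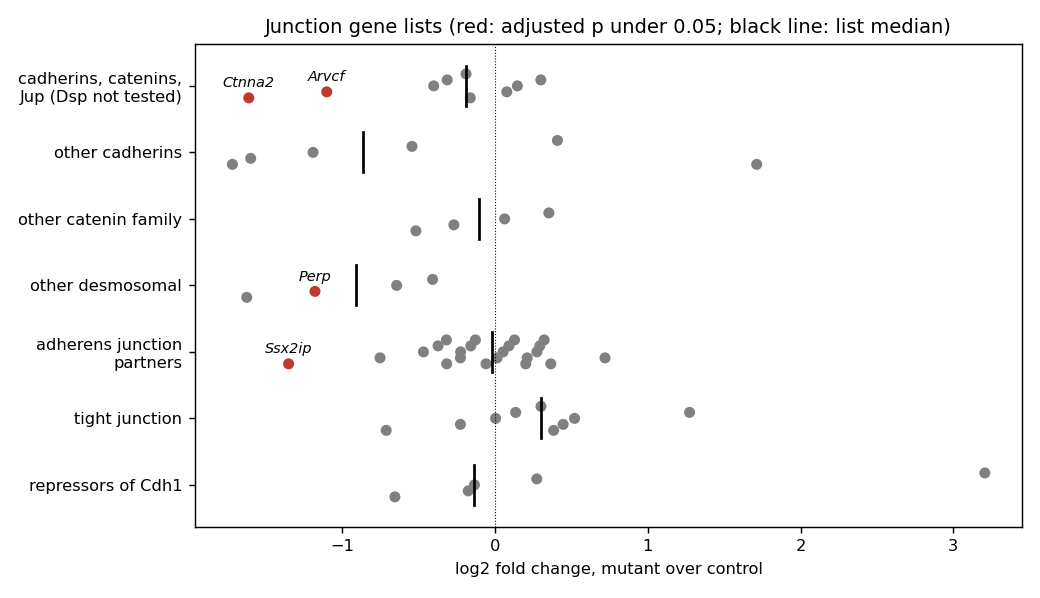
Log2 fold change, mutant over control (x axis), of every tested gene of the 10 genes and of 6 lists of other junction genes and Cdh1 repressors (rows; vertical spread within a row only separates points); black lines mark list medians, and red marks an adjusted p under 0.05 in edgeR. The 4 called genes, Ctnna2, Ssx2ip, Perp and Arvcf, lie between -1.61 and -1.10, and the medians lie between -0.91 and 0.30.

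Genes whose log2 CPM over the 6 libraries was most like that of a member were sought among 9686 tested genes with a mean of at least 5 CPM, by Pearson's r given here as a description. For Arvcf these were 9130023H24Rik, Tsc2 and Acbd5 (r of 0.999, 0.999 and 0.998), and for Ctnna2 they were Etf1, AA987161 and Slc35g2 (r of 0.998, 0.996 and 0.996). For Cdh1 they were AI597468, Raver1 and Rsbn1 (r of 0.992, 0.986 and 0.986), and for Cdh2 they were Pofut2, Ube2o and Pip5k1c (r of 0.984, 0.979 and 0.977). Values of all genes come from the same 6 libraries and share their depth, scaling and tissue make-up, and with so few libraries a search over this many genes yields high r. Of these genes only Tsc2, which encodes tuberin of the mTOR pathway, was itself called, at 103.1 CPM ± 17.8 in mutant and 305.4 CPM ± 135.0 in control libraries (SD, n = 3 each; edgeR adjusted p = 0.043).

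In the authors' deposited table, Ctnna2 has a log2 fold change of -1.56 (adjusted p 8.0e-06) and Arvcf one of -1.08 (adjusted p 6.8e-05). For the other 8 genes, the authors' deposited table gives adjusted p-values between 0.285, for Ctnnb1, and 0.935, for Ctnnd1. Its signs for the 10 genes, Dsp included, are those given above.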

How the data were processed

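RNA of 3 mutant and 3 control libraries was amplified with a SMART-seq v4 ultra-low input kit and tagmented with Nextera XT, per the labels' protocols; such libraries hold no molecular identifiers and do not mark strand. Build mm9 and the tools TopHat, Cufflinks, DESeq and bcl2fastq 1.8.4 are named, without roles, per the submitters' processing notes. Which program counted reads, and on which annotation, is not given in the sources used here. Raw whole-number counts by gene symbol were deposited, and the per-library files and the table of the series held the same values (0 of the counts differed over 23420 genes). A further deposited table holds the authors' own comparison, with a mean signal, log2 fold changes, a test score and p-values.

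Groups and replicate numbers come from the titles. The main test was run in edgeR 4.0.16 (R 4.3.3): filterByExpr (minimum count 10, minimum total 15), TMM scaling, robust quasi-likelihood F test over all libraries without covariates, Benjamini-Hochberg adjustment over 12257 genes, threshold 0.05. The procedure was tested on simulated data. SEs were derived from the F statistic. No pair of replicates agreed within sampling noise (chi-square of their counts divided by its degrees of freedom, 28.1 to 137). Alternatives were DESeq2 1.42.0, limma 3.58.1 (voom with quality weights), other scalings and filters, a replicate block, a crystallin covariate and leaving out each library. Genes and lists were chosen with earlier results of these data known. Named genes were the 10 members, called genes of the lists (up to 4 each), the 3 most alike genes by correlation, and the targeted genes. All other genes in the text, such as markers, neighbours and further genes of the lists, were named after their values were seen. Promoter sequences are from RefSeq, GRCm38.p6; exon lengths, overlaps and gene order are from annotations of GRCm38, and protein sequences were not used here. A gene beside the members is not reported here.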

Additional observations from a re-analysis of the deposited data

How the results depend on the processing

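The count of 2 called among the 10 genes stayed at 2 with DESeq2 size factors, scaling without crystallin genes, no filter, the filter of 5 CPM in 3 libraries, DESeq2, limma voom and the crystallin covariate, and was 0 with the replicate block. Leaving out single libraries gave between 0 and 2 called among the 10 genes, and between 91 and 479 over all genes. Without mutant library 1 or 3 or control library 2 there were 0 of the 10 (98, 91 and 92 over all genes), without control library 1 or 3 there was 1 (Arvcf; 223 and 142), and without mutant library 2 there were 2 (479). The count over all genes, 272, was 122 with the replicate block, 821 with DESeq2, 808 with limma voom and 798 with the crystallin covariate. Deviations from the group mean correlated at -0.331, -0.183 and 0.246 between same-numbered libraries. With 3 libraries in each group, these values cannot tell whether the numbers pair the samples. Under the block, edgeR adjusted p was 0.0869 for Arvcf, 0.0824 for Ctnna2, 0.0702 for Perp, 0.0513 for Ssx2ip and 0.0824 for Etv1. Etv5 passed without crystallin genes in the scaling, with either other filter, in DESeq2, in limma voom and with the crystallin covariate. Signs turned for Cdh1 without control library 3 (0.28), for Ctnnd1 without mutant library 3 (-0.039), without control library 2 (-0.073) and with the crystallin covariate (-0.028), and for Ctnnd2 with the crystallin covariate (0.011). Over the leave-out fits Cdh1 lay between -0.76 and 0.28 and Ctnnd1 between -0.073 and 0.23. The difference in log2 ratio of Cdh2 to Cdh1 turned to 0.025 without mutant library 1, 0.051 without mutant library 3 and 0.58 without control library 1, and over the leave-out fits lay between -0.65 and 0.58. The other 4 ratios kept their sign, and with the replicate block (exact sign-flip test) the smallest p was 0.25. The causes were not tested. Dsp and the untested genes of the lists had too few counts for the filter.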
